A study of Homo sapiens with 6 samples.

Results

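The genes described here are 47 interferon-stimulated genes and components of the interferon signalling chain, taken from a fixed list of symbols out of the 59653 gene symbols in the count table. The list is one of symbols and uses no threshold on a measured value, but it was chosen with earlier results of these data known. They fall into 3 levels: 4 receptor chains and receptor-bound kinases, 6 STAT and IRF transcription factors, and 37 target genes. They were followed by sequencing of polyadenylated RNA in PA1, an established human cell line from an ovarian teratocarcinoma, whose genotype label is wild type. Of the 6 libraries, 3 came from cells given a negative control small interfering RNA (siRNA) and 3 from cells given siRNA against SOX2, a transcription factor of pluripotent cells. For SOX2, 2 siRNAs are named in the labels, and whether a culture received one or both is not stated. In both groups the cells were transfected in adherent culture, moved after 24 h to poly-HEMA-coated plates on which they cannot attach, and lysed after a further 72 h. Every library thus came from transfected cells, and no untransfected cells were among the samples. Nothing in the labels says that the 3 libraries of a group came from separate cultures, so p-values measure the spread between libraries, which may be technical.

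Type I interferons are secreted antiviral proteins that bind a receptor made of IFNAR1 and IFNAR2. The kinases JAK1 and TYK2, bound to the receptor tails, then phosphorylate STAT proteins, and a complex called ISGF3, which contains STAT2 and IRF9, forms. ISGF3 binds a promoter element called the interferon-stimulated response element (ISRE) and raises transcription of a large set of target genes, many of which block steps of viral replication. Many of these targets also have a basal level of transcription without added interferon, and pluripotent cells are known for a weak response to interferon.

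Total counts ranged from 25152313 to 32753184 per library, and 3 counts, used here as the detection floor, equalled 0.0909 to 0.120 CPM (counts per unit of a common library total, the usual scale of RNA-seq levels, after TMM scaling). Replicate libraries differed by more than counting noise (chi-square per degree of freedom 2.77 to 5.91), so none looked like a repeat of another. The targeted gene, SOX2, was at 245, 265 and 256 CPM in control and at 51.8, 54.9 and 50.6 CPM after SOX2 siRNA, a log2 fold change of -2.28 with an SE of 0.0437 (edgeR, adjusted p = 5.97e-16 by Benjamini-Hochberg). Of 8 pluripotency and teratocarcinoma markers, 7 passed the low-count filter, with a summed level of 1480 to 1510 CPM in control and 2110 to 2140 CPM in SOX2 siRNA libraries. POU5F1, LIN28A, LIN28B and DNMT3B were called higher, and LIN28A alone was at 704 to 710 CPM in control and 1140 to 1150 CPM in SOX2 siRNA libraries. SALL4, DPPA4 and L1TD1 had log2 fold changes below 0 and were not called, and TDGF1 had at most 3 counts in any library. Across the 17592 tested genes, 28.2% passed an adjusted p of 0.05 (hereafter called), 13.4% lower and 14.8% higher after SOX2 siRNA. The groups did not overlap, with SOX2 siRNA libraries lower, in 20.3% of tested genes, and with SOX2 siRNA libraries higher in 21.5%.

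The decrease after SOX2 siRNA was found mainly among the target genes. Of the 47 genes, 39 had enough counts to be tested. Of these 39, 15 were called lower (38.5%, against 13.4% of all tested genes) and 2 higher (5.13%, against 14.8%). The groups did not overlap in 16 of the 39 with SOX2 siRNA lower and in 4 with it higher. Among all tested genes, 20.3% had no overlap with SOX2 siRNA lower and 21.5% with it higher. At the target level 14 of 29 tested genes fell (48.3%, against 13.4% of all tested genes) and 2 rose (6.90%, against 14.8%). Among the STAT and IRF genes 1 of 6 fell (16.7%), a share close to that of all tested genes. None of the 4 receptor and kinase genes was called by edgeR, although all 4 had an unadjusted p under 0.05; 3 of these had values above 0 and 1 below. The median log2 fold change was -0.20 for the targets, -0.045 for the STAT and IRF genes and 0.12 for the receptors and kinases, beside -0.001 for all tested genes. Whether the levels differed from each other was not tested. Since the members were chosen with earlier results of these data known, their shares beside all tested genes are a description and no independent test.

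The same values were also set out library by library, which restates the fold changes and is not separate support. For each gene the log2 CPM in a library was set against the mean of the control libraries, and the median was taken over a level. Control medians therefore lie near 0 by construction. For the targets this gave -0.016, -0.009 and 0.024 in control and -0.171, -0.206 and -0.247 after SOX2 siRNA, which did not overlap. For the STAT and IRF genes it gave 0.043, -0.051 and -0.007 in control and -0.022, -0.113 and -0.056 in SOX2 siRNA libraries, which overlapped. For the receptors and kinases it gave 0.017, 0.017 and -0.049 in control and 0.077, 0.104 and 0.103 in SOX2 siRNA libraries, all higher than in control.

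**Figure D1:**
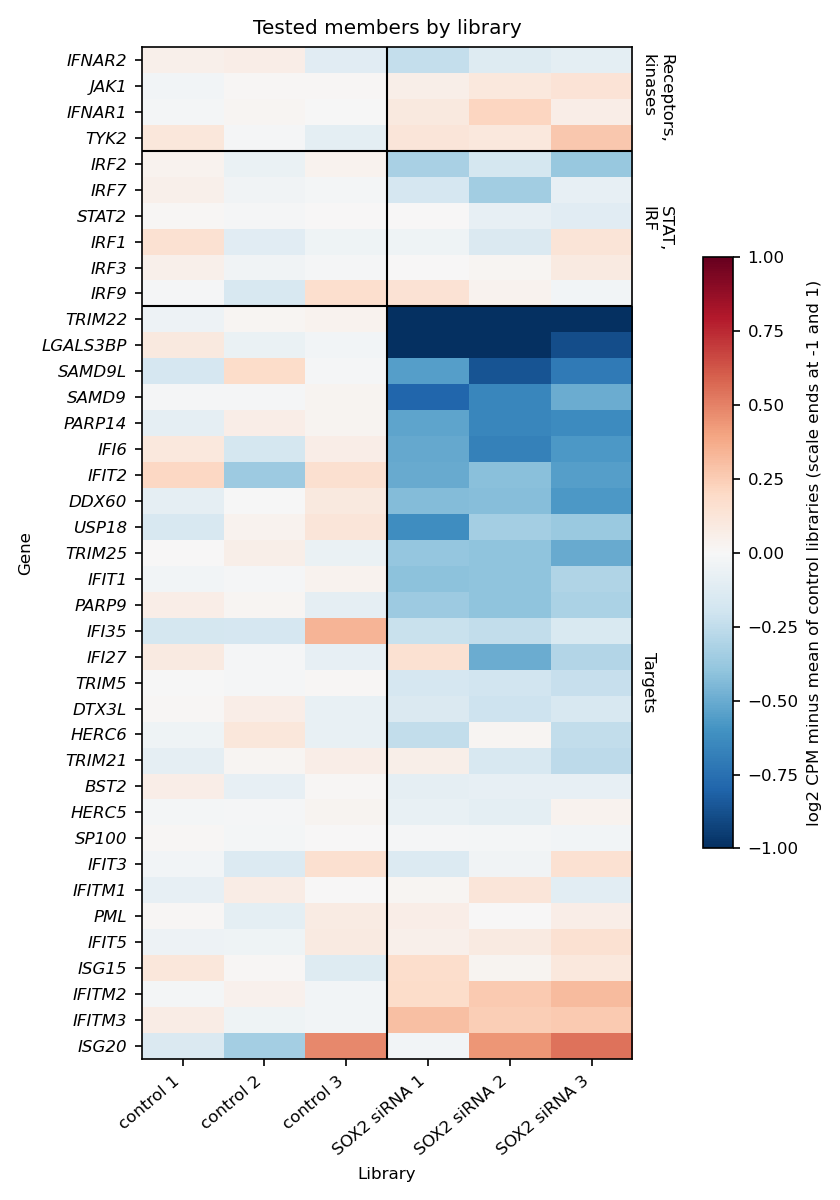
Each row is a tested gene and each column a library; colour gives log2 CPM minus the mean of the control libraries, with rows grouped by level and ordered by fold change, and values beyond -1 drawn at the end of the scale. The blue block in the SOX2 siRNA columns is at the top of the target rows, led by TRIM22 and LGALS3BP, and does not extend to most receptor, kinase, STAT and IRF rows.

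At the top of the chain, the ligand genes that were read, which are not all interferon genes, were near absent in both groups. Of 10 interferon genes of types I, II and III, 8 had 0 counts in every library, among them IFNB1, the interferon most cell types make first; 0 counts allow up to 0.120 CPM in the shallowest library. IFNG had 1 count in 1 library. IFNE, an interferon of epithelia of the reproductive tract, had 12, 19 and 5 counts in control and 15, 4 and 4 in SOX2 siRNA libraries (edgeR adjusted p = 0.448).

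The receptor chain genes did not pass the test. IFNAR1 was at 36.7, 37.6 and 37.1 CPM in control and 39.7, 43.2 and 39.0 CPM in SOX2 siRNA libraries (log2 fold change 0.13, SE 0.051; edgeR adjusted p = 0.0689). All 3 SOX2 siRNA libraries were above all 3 controls, and the 95% interval of the ratio of SOX2 siRNA to control was 1.02 to 1.18. IFNAR2 was at 21.0, 21.2 and 18.6 CPM in control and 17.1, 18.5 and 18.9 CPM in SOX2 siRNA libraries (log2 fold change -0.15, SE 0.068; adjusted p = 0.104; ratio interval 0.813 to 0.992). Its groups overlapped, and without control replicate 3, the lowest control, it was called lower (adjusted p = 0.0476). In the GENCODE 29 annotation 44.2% of the exon bases of IFNAR2 are shared with AP000295.1 on the same strand, which swung between 14 and 157 counts across libraries, so the count of IFNAR2 depends on how shared reads were divided.

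The kinase genes had values slightly above control. JAK1 was at 104, 107 and 107 CPM in control and 111, 114 and 117 CPM in SOX2 siRNA libraries, without overlap (log2 fold change 0.10, SE 0.0378; edgeR adjusted p = 0.0573; ratio interval 1.01 to 1.13). TYK2 was at 39.3, 36.0 and 34.0 CPM in control and 39.6, 39.1 and 43.7 CPM in SOX2 siRNA libraries (log2 fold change 0.16, SE 0.0602; adjusted p = 0.0554; ratio interval 1.02 to 1.22). The lowest SOX2 siRNA library of TYK2 lay just under the highest control. IFNAR1, JAK1 and TYK2 lay close to the threshold: IFNAR1 was called higher without SOX2 siRNA replicate 3 (adjusted p = 0.0468), JAK1 without SOX2 siRNA replicate 1 (0.0385) and TYK2 without control replicate 1 (0.0158). The intervals of these 3 genes, which are not adjusted for the number of genes, lay above 1.

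Among the transcription factors, the ISGF3 subunit genes STAT2 and IRF9 did not pass the test. STAT2 was at 52.9, 52.0 and 52.5 CPM in control and 52.5, 49.5 and 48.5 CPM in SOX2 siRNA libraries (log2 fold change -0.065, SE 0.0453; edgeR adjusted p = 0.323). Its groups overlapped, and the ratio interval was 0.895 to 1.02. IRF9, the DNA-binding subunit, was at 6.27, 5.67 and 7.13 CPM in control and 6.99, 6.49 and 6.19 CPM in SOX2 siRNA libraries (log2 fold change 0.043, SE 0.108; adjusted p = 0.816; ratio interval 0.880 to 1.21). In GENCODE 29, 48.4% of its exon bases are shared with AL136295.5 on the same strand, which had 134 to 233 counts per library, about as many as IRF9 (142 to 211), so the level of IRF9 is uncertain to that extent.

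Of the interferon regulatory factors, IRF2 fell. IRF2, known mainly as a repressor that competes with IRF1 for the same DNA element, was at 12.7, 11.8 and 12.6 CPM in control and 9.84, 10.9 and 9.47 CPM in SOX2 siRNA libraries, without overlap (log2 fold change -0.29, SE 0.0802; edgeR adjusted p = 0.0105). IRF7, the factor that amplifies interferon production, was at 6.36, 5.99 and 6.05 CPM in control and 5.47, 4.79 and 5.79 CPM in SOX2 siRNA libraries. The groups of IRF7 did not overlap, but the log2 fold change of -0.20 (SE 0.108) did not pass the test (adjusted p = 0.191). IRF1, an activator, was at 7.97, 6.59 and 6.95 CPM in control and 6.92, 6.46 and 7.83 CPM in SOX2 siRNA libraries, which overlapped (log2 fold change -0.025, SE 0.106; adjusted p = 0.894). IRF3, which responds to nucleic acid sensors and turns on interferon genes, was at 29.1, 27.5 and 27.8 CPM in control and 28.3, 28.5 and 29.9 CPM in SOX2 siRNA libraries (log2 fold change 0.037, SE 0.053; adjusted p = 0.667).

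Other genes of the pathway were taken from a list of 33 further receptors, kinases, STAT and IRF genes and negative regulators. Of these, 27 were tested, 1 was called lower and 5 higher, with a median log2 fold change of 0.079. These shares were 3.70% lower, against 13.4% of all tested genes, and 18.5% higher, close to the 14.8% of all tested genes. SOCS2, an inhibitor of cytokine receptor signalling known mainly for growth hormone receptors, fell from a mean of 90.6 ± 1.80 CPM to one of 33.8 ± 1.19 CPM (n = 3, SD; log2 fold change -1.42, edgeR adjusted p = 1.32e-13).

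The higher genes of that list were IRF2BP2, STAT6, IFNGR2, PTPN1 and IRF2BP1. IRF2BP2, a corepressor that binds IRF2, rose from 38.4 ± 0.112 CPM to 62.9 ± 1.56 CPM (n = 3, SD; log2 fold change 0.71, edgeR adjusted p = 1.30e-09). STAT6, the STAT of interleukin-4 signalling, rose from 50.6 ± 1.34 to 67.1 ± 2.78 CPM (log2 fold change 0.41, edgeR adjusted p = 2.54e-06). IFNGR2, a chain of the type II interferon receptor, rose from 26.0 ± 0.331 to 33.7 ± 1.97 CPM (log2 fold change 0.37, edgeR adjusted p = 6.58e-05). PTPN1, a phosphatase acting on JAK2 and TYK2, had a log2 fold change of 0.16 (edgeR adjusted p = 0.00505), and IRF2BP1, a relative of IRF2BP2, one of 0.21 (0.0316). The call of IRF2BP1 was lost under 7 of 15 alternatives, among them leaving out control replicate 2 (adjusted p = 0.138) or 3 (0.102), or SOX2 siRNA replicate 1 (0.123) or 3 (0.0539). Among the 16 negative regulators, SOCS2 was the 1 called lower and PTPN1 the 1 called higher (6.25% each, against 13.4% and 14.8% of all tested genes).

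**Figure D2:**
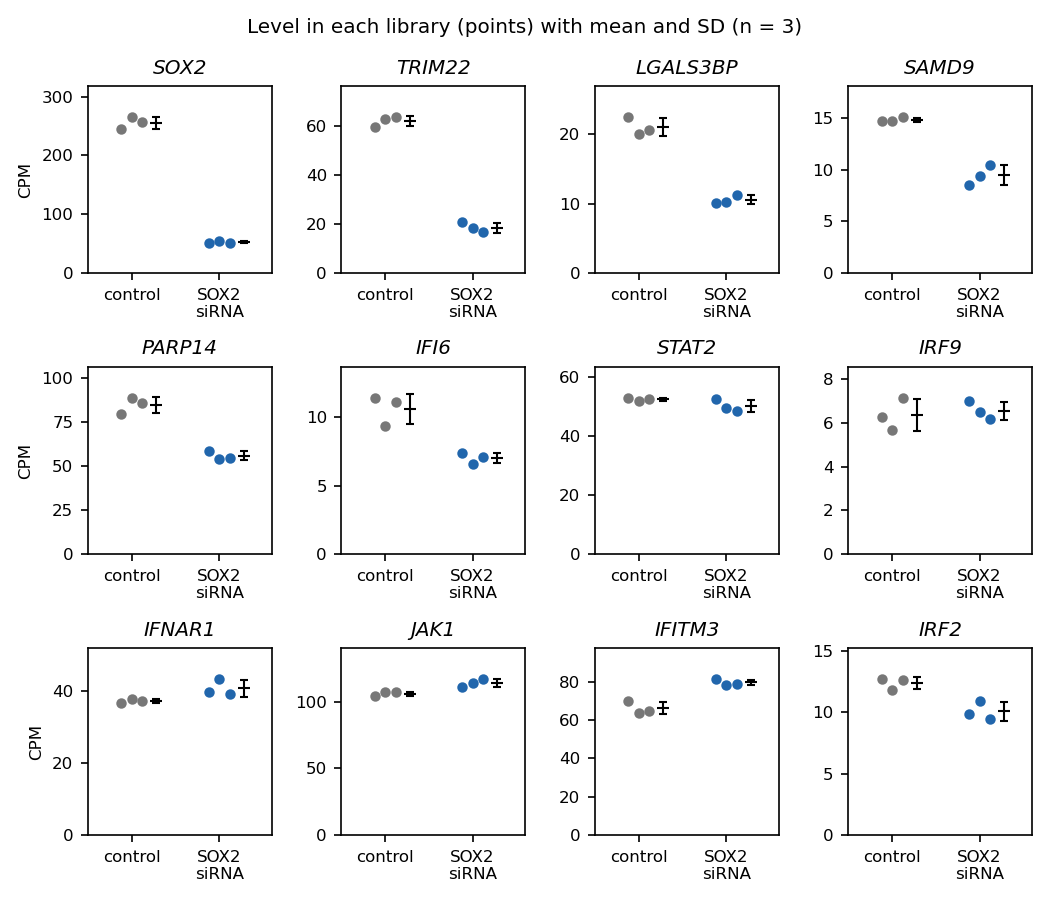
Points show CPM in each library for SOX2 and 11 other genes, grey for control and blue for SOX2 siRNA, with the mean and SD of 3 libraries drawn beside them; each axis starts at 0. TRIM22, LGALS3BP, SAMD9, PARP14, IFI6 and IRF2 have no overlap of the groups with SOX2 siRNA lower, IFITM3, IFNAR1 and JAK1 none with SOX2 siRNA higher, and STAT2 and IRF9 overlap.

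Among the targets, the tripartite motif (TRIM) genes held the largest fall. TRIM22, an interferon-induced E3 ubiquitin ligase with antiviral activity, was at 59.5, 62.7 and 63.4 CPM in control and 20.6, 18.2 and 16.5 CPM in SOX2 siRNA libraries. The SOX2 siRNA libraries held about 29.8% of the control level or, on the log2 scale, a change of -1.74 (SE 0.0659; edgeR adjusted p = 1.33e-11). TRIM22 was the 1 member lower by at least 2-fold. TRIM25, the ligase that activates the RNA sensor RIG-I, was at 58.1, 60.4 and 55.2 CPM in control and 44.2, 43.7 and 40.8 CPM in SOX2 siRNA libraries (log2 fold change -0.43, SE 0.0492; adjusted p = 3.08e-06). TRIM5, which restricts retroviral capsids, was at 46.6, 46.3 and 47.0 CPM in control and 41.4, 40.8 and 39.7 CPM in SOX2 siRNA libraries (log2 fold change -0.20, SE 0.0447; adjusted p = 0.00272). In all 3 genes the groups did not overlap, which held with SOX2 siRNA lower for 20.3% of all tested genes. TRIM21, a cytosolic antibody receptor, did not pass the test (log2 fold change -0.11; adjusted p = 0.38; ratio interval 0.810 to 1.05).

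LGALS3BP fell to about 50.1% of control. It encodes a secreted glycoprotein that binds galectin-3, and was at 22.5, 20 and 20.6 CPM in control and 10.1, 10.3 and 11.3 CPM in SOX2 siRNA libraries, without overlap (log2 fold change -0.996, SE 0.0735; edgeR adjusted p = 1.42e-08). Without LGALS3BP and TRIM22, the remaining called targets had log2 fold changes no lower than -0.72.

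The neighbouring genes SAMD9 and SAMD9L, which encode antiviral and growth-restraining proteins, both fell. SAMD9 was at 14.7, 14.7 and 15.1 CPM in control and 8.55, 9.40 and 10.5 CPM in SOX2 siRNA libraries (log2 fold change -0.64, SE 0.0816; edgeR adjusted p = 1.07e-05). SAMD9L was at 3.33, 4.27 and 3.74 CPM in control and 2.55, 2.04 and 2.28 CPM in SOX2 siRNA libraries (log2 fold change -0.72, SE 0.156; adjusted p = 0.00205). Neither gene's groups overlapped, beside 20.3% of all tested genes without overlap and with SOX2 siRNA lower. The 2 genes are related in sequence, and reads matching both could not be separated here.

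All 3 tested genes of the PARP and DTX3L group fell (against 13.4% of all tested genes called lower), by unequal amounts. PARP14, a mono-ADP-ribosyltransferase, was at 79.4, 88.4 and 85.9 CPM in control and 58.5, 53.7 and 54.6 CPM in SOX2 siRNA libraries (log2 fold change -0.60, SE 0.0492; edgeR adjusted p = 4.91e-08). PARP9, which acts in a complex with the ubiquitin ligase DTX3L, was at 14.8, 14.3 and 13.3 CPM in control and 10.9, 10.7 and 11.3 CPM in SOX2 siRNA libraries (log2 fold change -0.36, SE 0.0738; adjusted p = 0.00118). DTX3L had a smaller change, from 23.9 ± 1.15 CPM to 21.2 ± 0.467 CPM (n = 3, SD; log2 fold change -0.17, adjusted p = 0.0368). Its call was lost under 6 of 15 alternatives, among them leaving out control replicate 1 (adjusted p = 0.0825) or 2 (0.133), or SOX2 siRNA replicate 2 (0.14) or 3 (0.063). The 3 genes lie together on chromosome 3, and PARP9 and DTX3L start back to back.

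Of the IFIT genes, whose proteins bind foreign RNA ends and block its translation, IFIT1 and IFIT2 fell and IFIT3 and IFIT5 did not pass the test. IFIT1 was at 19.2, 19.4 and 20 CPM in control and 14.7, 14.8 and 15.9 CPM in SOX2 siRNA libraries, without overlap (log2 fold change -0.37, SE 0.0636; edgeR adjusted p = 0.000263). IFIT2 was at 2.76, 1.84 and 2.66 CPM in control and 1.66, 1.76 and 1.61 CPM in SOX2 siRNA libraries (log2 fold change -0.54, SE 0.19; adjusted p = 0.0445). The call of IFIT2 was weak: it was lost under 10 of 15 alternatives, including 5 of the 6 fits that left out 1 library (adjusted p 0.0758 to 0.176), and was kept without control replicate 2. IFIT3 had a log2 fold change of -0.008 (ratio interval 0.807 to 1.23) and IFIT5 of 0.094 (ratio interval 0.978 to 1.17).

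Among other effectors, IFI6 and DDX60 fell. IFI6, a small membrane protein that inhibits flaviviruses, was at 11.4, 9.38 and 11.1 CPM in control and 7.39, 6.62 and 7.10 CPM in SOX2 siRNA libraries (log2 fold change -0.60, SE 0.095; edgeR adjusted p = 0.00012). DDX60, a helicase linked to RNA sensing, was at 35.6, 37.8 and 40.5 CPM in control and 28.1, 28.3 and 25.4 CPM in SOX2 siRNA libraries (log2 fold change -0.48, SE 0.0599; adjusted p = 1.00e-05). IFI27, IFI35 and ISG20 did not pass the test, with log2 fold changes of -0.20, -0.24 and 0.32. ISG20 had the widest interval of the tested members, with a ratio of 0.792 to 1.97, since it had 11 to 26 counts per library.

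In the ISG15 system, ISG15 is a ubiquitin-like protein, HERC5 attaches it, and USP18 removes it and dampens the receptor. USP18 fell from 3.67 ± 0.360 CPM to 2.68 ± 0.286 CPM (n = 3, SD; log2 fold change -0.45, edgeR adjusted p = 0.0326). That call was lost by DESeq2's Wald test (adjusted p = 0.119) and without control replicate 2 (0.0958) or 3 (0.131) or SOX2 siRNA replicate 1 (0.105) or 2 (0.0563). ISG15, a gene that interferon induces strongly in most cells, was at 5.50 ± 0.463 and 5.91 ± 0.299 CPM, a log2 fold change of 0.10 that did not pass the test (adjusted p = 0.546; ratio interval 0.915 to 1.26). HERC5 and HERC6 had log2 fold changes of -0.045 and -0.15, with adjusted p-values of 0.6 and 0.511.

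The membrane restriction factors did not follow the falling targets. IFITM3, which blocks fusion of viruses in endosomes, rose from 69.7, 63.9 and 64.6 CPM to 81.3, 78.5 and 79.0 CPM, without overlap (log2 fold change 0.27, SE 0.0438; edgeR adjusted p = 0.000174). IFITM2, its close relative, rose from 18.5 ± 0.517 CPM to 22.1 ± 1.02 CPM (n = 3, SD; log2 fold change 0.26, adjusted p = 0.00398). IFITM1 was at 11.7 ± 0.642 and 11.8 ± 0.948 CPM (adjusted p = 0.9), and BST2, which tethers budding virus to the cell surface, at 58.1 ± 2.97 and 54.7 ± 0.189 CPM (adjusted p = 0.18). The IFITM genes are near-identical in parts, and IFITM1 and IFITM2 share 351 exon bases in GENCODE 29, so their separate counts are uncertain. The nuclear body genes PML and SP100 had log2 fold changes of 0.042 and -0.020, with intervals that lay between ratios of 0.898 and 1.12.

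**Figure D3:**
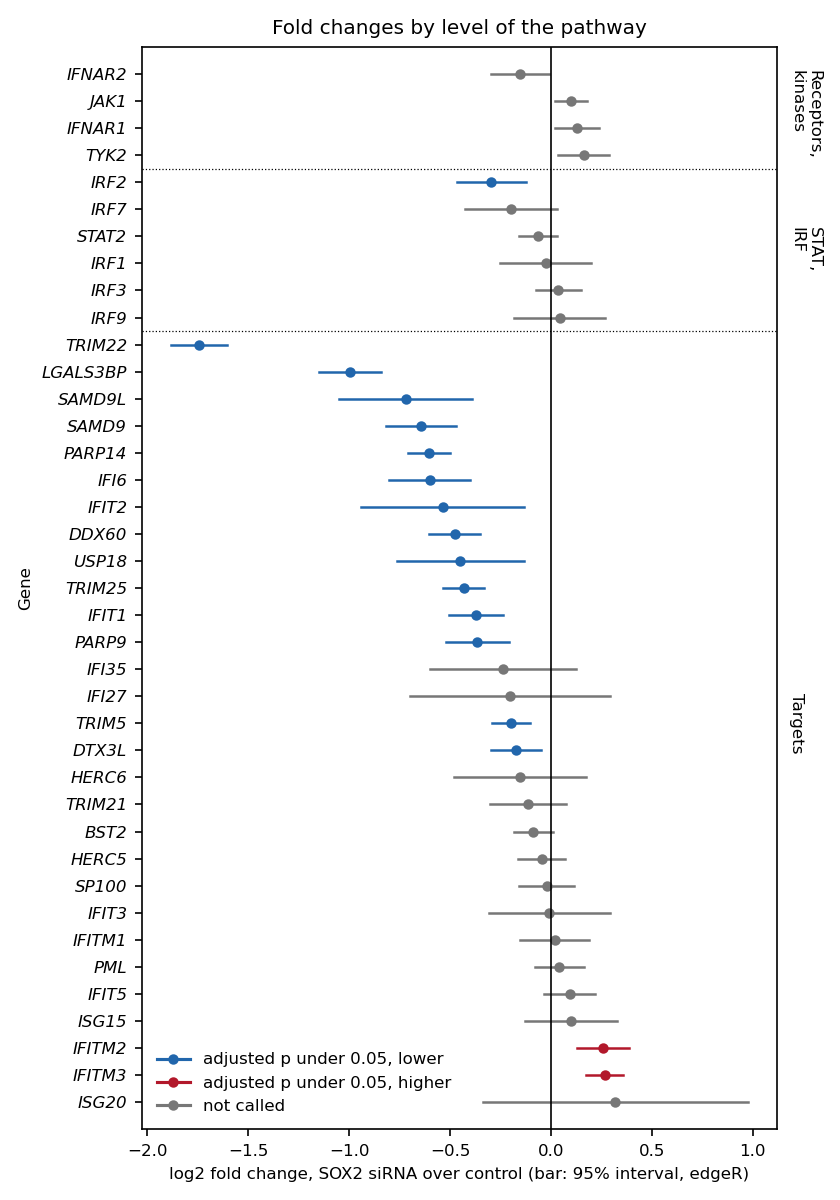
Points give the log2 fold change of SOX2 siRNA over control and bars its 95% interval for the 39 tested genes, grouped by level; blue marks genes called lower, red genes called higher and grey genes not called. The 14 blue targets span -1.74 to -0.17, while the 4 receptor and kinase genes lie between -0.15 and 0.16 and IRF2 is the 1 blue gene among the STAT and IRF genes.

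Several classical interferon targets were not expressed at a level that could be tested. PARP12, MX1, MX2, IFI44, IFI44L, RSAD2 and CMPK2 had at most 6 counts in any library, and RSAD2 and IFI44 had 0 counts in 5 of the 6. XAF1 had 9, 9 and 20 counts in control and 9, 5 and 6 in SOX2 siRNA libraries. For these 8 genes neither a fall nor its absence was detectable at this depth.

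The falling genes were not the least or the most expressed of the members. Per kilobase of exon, using GENCODE 29 exon lengths, control levels were highest for BST2 (51.9 ± 2.62 CPM per kb) and IFITM3 (49.0 ± 2.35), which differed from each other by about their spread, followed by JAK1 (16.8 ± 0.274; SD, n = 3). The called lower targets ran from IFI6 at 12.3 CPM per kb, TRIM22 at 10.3 and TRIM5 at 9.70 down to IFIT2 at 0.590 and SAMD9L at 0.530. STAT2 stood at 8.59 and IRF9 at 1.67 CPM per kb. The tested targets that did not pass the test ran from BST2 down to ISG20 at 0.0808 CPM per kb, so both outcomes were found over most of the range.

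**Figure D4:**
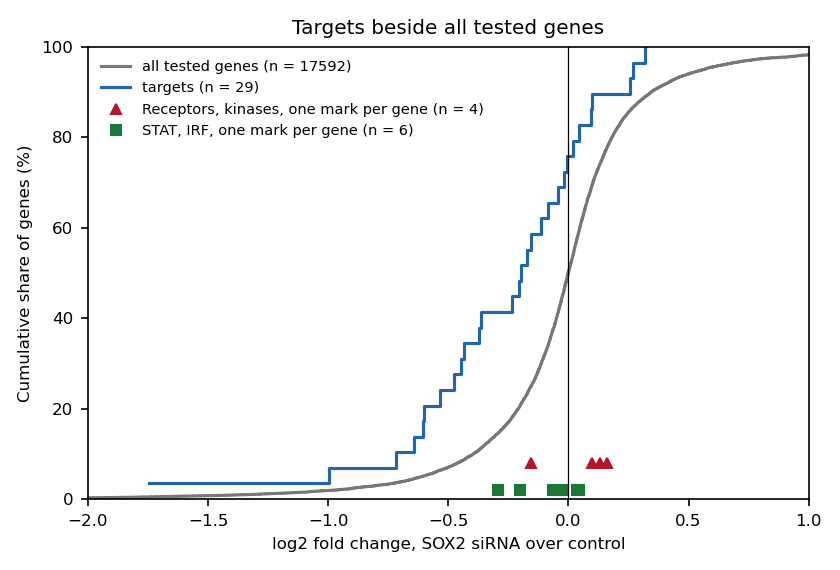
Lines give the cumulative share of genes, in percent, up to each log2 fold change for all 17592 tested genes (grey) and the 29 tested targets (blue); triangles mark receptors and kinases and squares STAT and IRF genes. The target line lies to the left, with a median of -0.20 against -0.001. Receptor and kinase marks lie between -0.155 and 0.162, and STAT and IRF marks between -0.295 and 0.043. IRF2 (-0.295) and IRF7 (-0.20) are the leftmost of these and reach the target median. The axis is drawn from -2 to 1.

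The promoters of the targets were examined for the element that ISGF3 binds. RefSeq windows from 250 bases before to 50 bases after each gene start (build GRCh38.p14) were searched on both strands for the ISRE core, GAAA and GAAA separated by any 2 bases (GAAA-NN-GAAA). A gene was counted when any of its windows held a match. The table had windows for 37 of the 47 genes; TRIM22, IFIT2, IFITM2, IFNAR2, IRF2, IRF3, IRF7, MX2, PML and USP18 had no entry. The core was found in 24 of 31 targets with a window (77.4%), in none of the 3 receptor and kinase genes and none of the 3 STAT and IRF genes, beside 4.38% of all 27305 genes in the table. It was held by 9 of 11 called lower targets (81.8%), 9 of 12 tested targets that were not called (75%) and the 1 called higher target with a window. The core was thus present in most targets with a window whether or not they fell, and the difference between these shares was not tested.

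The following stretches, each from the strand of its gene and ending before the gene start, show the core in capitals (GAAA-NN-GAAA or, where the match is on the other strand, TTTC-NN-TTTC). The first 6 are from targets that fell.
SAMD9 (chr7:93118086-93118135, minus strand): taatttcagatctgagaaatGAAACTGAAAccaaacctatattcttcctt
PARP14 (chr3:122680790-122680838, plus strand): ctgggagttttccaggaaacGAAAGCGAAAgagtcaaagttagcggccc
LGALS3BP (chr17:78979952-78980001, minus strand): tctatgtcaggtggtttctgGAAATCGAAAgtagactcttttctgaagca
IFI6 (chr1:27672256-27672368, minus strand): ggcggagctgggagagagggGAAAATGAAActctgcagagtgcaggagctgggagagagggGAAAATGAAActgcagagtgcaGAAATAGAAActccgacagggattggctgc
DDX60 (chr4:168318776-168318860, minus strand): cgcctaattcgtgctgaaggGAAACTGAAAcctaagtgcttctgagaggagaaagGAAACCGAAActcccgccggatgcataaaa
IFIT1 (chr10:89392487-89392549, plus strand): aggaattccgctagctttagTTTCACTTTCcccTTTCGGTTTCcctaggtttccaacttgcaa
The next 3 are from targets that rose or did not pass the test.
IFITM3 (chr11:320866-320932, minus strand): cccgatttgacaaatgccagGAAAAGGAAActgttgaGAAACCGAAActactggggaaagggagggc
IFIT5 (chr10:89414503-89414567, plus strand): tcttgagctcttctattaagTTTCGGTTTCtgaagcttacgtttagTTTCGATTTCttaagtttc
ISG15 (chr1:1013364-1013419, plus strand): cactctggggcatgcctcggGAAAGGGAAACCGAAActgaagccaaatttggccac

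IFI6, lower after SOX2 siRNA, carried 3 cores, beginning 156, 115 and 93 bases before its start. IFIT1, which was lower, and ISG15, which did not pass the test, both carried 2 cores at about the same distance, beginning 116 and 103 bases and 113 and 107 bases before the start; those of ISG15 overlap. IFIT5 had a further match that runs across its start and is not shown. PARP9 and DTX3L, both lower, share 1 core, since their windows overlap head to head. It is printed on the plus strand, that of DTX3L, whose start it spans.
DTX3L and PARP9 (chr3:122564322-122564351): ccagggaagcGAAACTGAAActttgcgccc

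The gamma-activated site TTCNNNGAA, bound by STAT dimers, was found in 7 of 31 targets (22.6%) and in 2 of the 3 STAT and IRF genes with a window, IRF1 and IRF9, beside 9.38% of all genes. In PARP14 it lies just before the ISRE core, and in BST2, IFI27, IFITM1 and MX1 the 2 motifs overlapped. The short SOX core ACAAAG was found in 5 of 31 targets (16.1%) and in 2 of 11 called lower targets (18.2%), IFIT1 and TRIM5. It was found in 19.0% of all genes with a window, 15.7% of the tested ones and 18.7% of those called lower. The target shares were thus close to these.

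Markers of other cell types were read in the same libraries. Of 5 endothelial markers, 4 were tested and all 4 were called lower (against 13.4% of all tested genes), with a summed level of 112 to 116 CPM in control and 83.3 to 86.7 CPM in SOX2 siRNA libraries; PECAM1 had a log2 fold change of -0.55 and CLDN5 had 0 counts in every library. Their part in the fall of the targets was not tested. Of 8 haematopoietic markers, 4 were tested and 1, CD14, was called higher (25% of the 4, against 14.8% of all tested genes). Their summed level ranged from 3.74 to 16.3 CPM in control and from 2.94 to 19.4 CPM in SOX2 siRNA libraries, mostly from LYZ, which had between 48 and 542 counts per library in both groups, while the leukocyte marker PTPRC had at most 3 counts. In bulk RNA, fewer cells expressing a gene and less RNA per cell cannot be told apart.

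The deposited counts do not show whether strand was used. In GENCODE 29, 11 of the 39 tested genes share exon bases with a gene on the opposite strand and 9 with a gene on the same strand. For TRIM22 the same-strand partner OR56B1, over 10.7% of its exon bases, had at most 2 counts. On the opposite strand, BCL2L12 covers 19.3% of the exon bases of IRF3 and had up to 1082 counts, where IRF3 had 689 to 961. LIPA covers 1.58% of those of IFIT2 and had up to 2222 counts, where IFIT2 had 46 to 91. Whether reads of these partners entered the counts was not tested.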

How the data were processed

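RNA was extracted with Trizol and turned into libraries by KAPA mRNA HyperPrep, per the labels' protocols. The authors deposited 1 table of raw read counts per gene symbol. The submitters' processing notes name bcl2fastq 2.20.0, STAR 2.7.3a, Salmon 0.14.1, DESeq2 1.28.1 and GRCh38.p13, without their roles; the annotation and the use of strand are not given in the sources used here. If counts came from Salmon, reads shared by overlapping or similar genes were divided by estimate.

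Columns were matched to libraries by the identifier in each description, and groups and replicate numbers were read from the titles. Genes were filtered with edgeR's filterByExpr (minimum count 10) and scaled by TMM (factors 0.992 to 1.01). All tested genes were fitted together with edgeR 4.0.16's quasi-likelihood test (robust, group only) in R 4.3.3, with Benjamini-Hochberg adjustment over all of them and a threshold of 0.05. Intervals are 95% intervals of that fit. For library medians, log2 CPM was computed with a prior count of 2. Floors cover counting error only.

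The members and lists were chosen with earlier results of these data known. Every library value is given for SOX2 and for the receptor, kinase, STAT and IRF members. It is also given for targets called with a 1.5-fold change or among the 12 smallest p-values, and for IFIT2, which met neither rule. All 6 of the other pathway genes that were called are named. The genes sharing exons were named, and the SOX core was chosen, after values were seen. The list of other pathway genes is not complete, and 1 gene of the pathway is not reported here. Alternatives were DESeq2 1.42.0 size factors and Wald test, upper-quartile and total-count scaling, 2 other filters, limma-voom (limma 3.58.1), robust=FALSE, the replicate number as a block, and each library left out. GENCODE 29 supplied exon lengths and overlaps, and RefSeq the promoters.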

Additional observations from a re-analysis of the deposited data

How the results depend on the processing

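Under the 15 alternatives, between 12 and 15 members were called lower and 2 or 3 higher. Among all tested genes, whose number varied from 16039 to 33956, calls ran from 1785 to 2734 lower and from 1954 to 2809 higher. The same 12 of the 15 called lower members were called under each alternative, and IFIT2, USP18 and DTX3L were not. Targets called lower numbered 11 to 14, and IRF2 was called lower under each. No called member changed sign. Without any filter beyond 1 count the target median was -0.165, since genes with few counts then enter it. The number of receptors and kinases called lower ranged from 0 to 1 over the fits that left out 1 library (IFNAR2, without control replicate 3).

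With the replicate number as a block, 14 members were called lower and 3 higher (IFIT2 lost, adjusted p = 0.0618, and JAK1 gained, 0.0377). Of all 17592 tested genes, 2457 were then called lower and 2720 higher. Same-numbered libraries did not deviate together (correlations across genes of 0.0868, -0.0377 and -0.0311), so the numbers were not taken as pairs. JAK1 was also called with total counts only (0.0475), and TYK2 with the looser (0.0136) and stricter (0.0498) filter.

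Signs turned in 11 values, all of members that were not called and lay near 0. Over the fits that left out 1 library, log2 fold changes ran from -0.094 to 0.079 for IFIT3, -0.107 to 0.061 for IRF1, -0.028 to 0.133 for IRF9, -0.043 to 0.074 for IFITM1 and -0.002 to 0.083 for PML. Upper-quartile scaling gave -0.002 for IFITM1, against 0.019 in the main fit. The median of all tested genes was -0.0211 under that scaling and -0.001 in the main fit. The cause was not tested. Depth limits the 8 untested members.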
